A study of Bos taurus with 17 samples.

Results

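The transcripts described here are those of 10 genes active in the oocyte, the female germ cell, as they were measured in bovine samples of cumulus cells, the somatic cells that surround it. The genes are ZP2, ZP3, ZP4, GDF9, BMP15, NLRP5, NOBOX, CPEB1, DAZL and MOS. A probe was taken when the array files named it by the gene's symbol or an older symbol of it, or when the description of an entry without a symbol named the gene. Each of the 10 genes was found with 1 probe, among 20597 gene or other names carried by the 21475 probes of the array. ZP2, ZP3, ZP4, GDF9 and BMP15 bear their own symbols, NLRP5 and MOS older ones, and CPEB1 and DAZL were found by description. NOBOX is described only as an OG2 homeobox gene, an older name, and its gene ID belongs to NOBOX in the RefSeq table. Of the 10 genes, 5 (ZP3, GDF9, NLRP5, NOBOX and CPEB1) passed a filter that asked for a signal on 80% or more of a stage's arrays, in all 3 stages, and are called valid below.

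A growing oocyte builds a store of messenger RNA that serves meiosis and the first divisions of the embryo, at a time when its own transcription is silent. It also makes the zona pellucida, a coat of glycoproteins around the egg, and secretes growth factors that act on the cumulus cells. Cumulus cells reach through the zona with fine processes that touch the oocyte, and these contacts are withdrawn when the cumulus expands before ovulation. In bulk samples such as these, fewer oocytes or fragments of them and less RNA per oocyte cannot be told apart, nor can either be told from expression in the cumulus cells themselves.

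Samples were collected at 3 stages. NC1 samples came from 6 prepubertal calves aged 3 to 6 months, and C1 samples from 6 adult cows, both by aspiration of ovarian follicles after slaughter, with compact cumulus and prophase I oocytes. C2 samples came from 5 cycling, non-lactating Holstein cows aged 3 to 5 years, given progestagen implants, a porcine FSH/LH preparation and prostaglandin F2α, by ovum pick up from large pre-ovulatory follicles, with expanded cumulus and metaphase II oocytes. In every sample the cumulus cells had been separated mechanically from the oocytes, and the labels name the tissue as ovarian follicles. NC1 and C1 therefore differ in the age of the animal as well as in stage, and C1 and C2 differ in follicle size, hormone treatment and way of collection, so these cannot be told apart. Each sample's RNA, labelled with Cy3, filled 1 one-colour Agilent array of bovine probes.

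The 17 arrays gave 66.2% to 82.8% of probes well above background, with a median signal of 64.2 to 208 intensity units per array. They lay on 6 slides, of which 5 held all 3 stages and 1 held NC1 and C1 alone, and each of the 2 scan days held arrays of every stage. All 12 granulosa and cumulus marker genes, FOXL2, FSHR and AMH among them, were well above background on every NC1 and C1 array, and 11 of 12 on every C2 array. Among the C2 arrays, 2 pairs (replicates 1 and 5, and 3 and 4) were close to each other, with an SD of the log2 difference over valid probes of 0.44 and 0.51, while the 8 other pairs lay between 1.05 and 1.27. On the log2 scale, the summed signal of 9 leukocyte markers ranged from 2.80 to 3.84 at NC1, from 2.47 to 3.06 at C1 and from 2.81 to 4.98 at C2. That of 6 endothelial markers ranged from 0.75 to 1.59, from 0.60 to 0.93 and from 1.52 to 3.52, that of 7 theca and stroma markers from 6.89 to 8.03, from 7.37 to 8.08 and from 6.61 to 7.53, and that of 2 red blood cell markers from -3.58 to -2.46, from -3.34 to -2.63 and from -3.04 to -1.72. The endothelial markers did not move alike. At NC1, C1 and C2, KDR had means of -1.88, -1.97 and 1.61, and VWF of -1.51, -1.55 and -1.06. TEK had -0.25, -1.08 and -1.86, PECAM1 -2.60, -2.96 and -3.66, and CLDN5 -1.45, -1.27 and -1.33. Of the defining markers, CDH5 was not well above background on any array and CD3E on none of the NC1 and C1 arrays, and the part of these cells in the results was not tested.

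Levels are given as the log2 signal of a probe minus the median of its array, so that 0 is the array's median probe. Levels of different probes were not compared. Differences between stages come from limma, with p adjusted by the Benjamini-Hochberg method and a threshold of 0.01, over the 13865 valid probes for the valid members and over all 21475 probes for the others. Samples came from different animals, and their number limits the precision of every value.

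The deposited table holds the probe sequence of 6 of the members. The 3′ ends of these 60-base probes are shown. The bases AATAAA, the letters of a polyadenylation signal, are in capitals where they occur on the printed strand. The place of each probe in its transcript was not tested.
ZP3: ccctgtgtctgcttcccAATAAAagaagaa
ZP4: tggagatgagttgctcagcccaaatgtgtt
GDF9: ttaatggaggAATAAAttcctgtgagtggc
NLRP5: ctctgtgaagcgctgtcctacctgaacaca
CPEB1: agattttagttcctcattttgccgatgaaa
NOBOX: accactgcccgaagaccctctctttgcctt
The letters AATAAA were found in the ZP3 and GDF9 probes, and in 12.2% of the last 30 bases of all 15256 probes of that table. A match is a description of these letters. The probe sequences of ZP2, BMP15, DAZL and MOS are not shown here.

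The members fell into 3 patterns. ZP2, ZP3, ZP4, GDF9, BMP15, NLRP5 and MOS had their highest mean in the calf samples. They were variable in the adult compact samples and lower or at background in the expanded samples. BMP15 lay below the array median in the calf samples too. CPEB1 was equally high in both compact stages and fell at C2 stage, the NOBOX probe stayed near the same level, and DAZL was close to background throughout. These groups were formed after the values were seen and serve as a description.

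**Figure D1:**
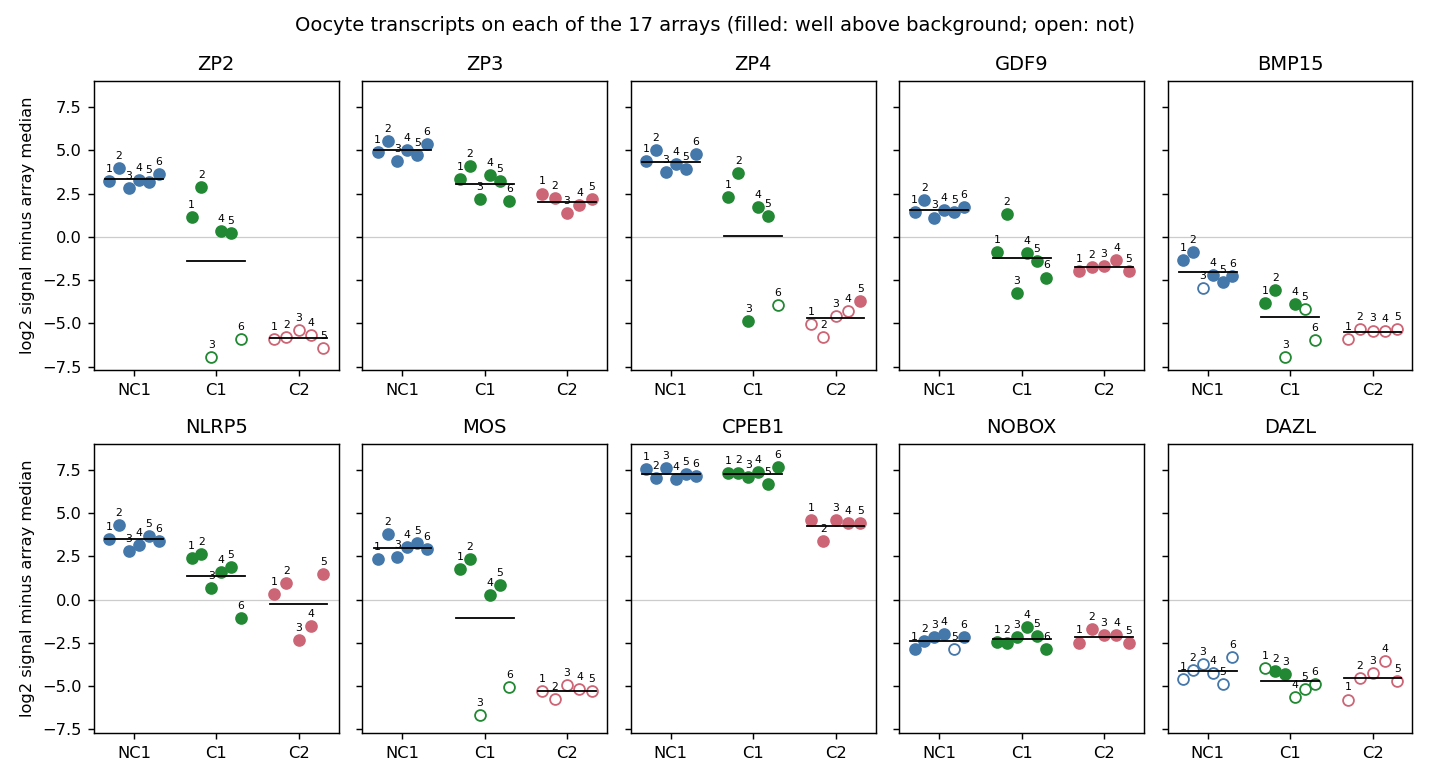
Log2 signal minus the array median (vertical axis) for the 10 members on the 17 arrays, by stage, with the replicate number beside each point and the stage mean as a line. Filled points were well above background and open points were not. ZP2, ZP4 and MOS lie above 2.3 on every NC1 array and at or near background on the C2 arrays, while CPEB1 stays above 6.6 on every NC1 and C1 array.

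ZP2, ZP3 and ZP4 encode glycoproteins of the zona pellucida. ZP2 lay between 2.82 and 3.96 on the 6 NC1 arrays, with a median of 3.27. On the C1 arrays 1 to 6 it was 1.17, 2.91, -6.93, 0.34, 0.25 and -5.92, and on the C2 arrays 1 to 5 it was -5.87, -5.78, -5.38, -5.64 and -6.41. It thus stood well above background on every NC1 array, on 4 of the 6 C1 arrays and nowhere at C2, with C1 replicates 3 and 6 at the level of the C2 arrays. Its SD over the C1 arrays was 4.05, against 0.40 at NC1 and a median of 0.38 over all probes at C1. ZP4 lay between 3.76 and 5.02 at NC1 with a median of 4.30. It measured 2.33, 3.68, -4.88, 1.73, 1.21 and -3.93 on the C1 arrays and -5.05, -5.79, -4.59, -4.31 and -3.72 on the C2 arrays. The same C1 replicates 3 and 6 stood apart. ZP4 was well above background on 5 C1 arrays and on 1 C2 array.

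ZP3 stayed above background on all 17 arrays. It lay between 4.37 and 5.55 at NC1 with a median of 4.96, measured 3.33, 4.11, 2.21, 3.56, 3.22 and 2.07 on the C1 arrays, and 2.50, 2.27, 1.40, 1.84 and 2.19 on the C2 arrays. No C1 array reached the lowest NC1 array, and C1 replicates 3 and 6 lay within the range of the C2 arrays. On the log2 scale ZP3 fell by 2.95 ± 0.33 (SE) from NC1 to C2, a 7.74-fold fall (adjusted p = 1.62e-06). For ZP2 and ZP4, whose C2 signals were at background, the difference is a limit. Here and below, the adjusted p beside a limit is that of the limma fit to the measured signals. The limits themselves were not tested. Set at the lowest signal well above background on each array, C2 samples had at least 117-fold less ZP2 signal than NC1 samples (adjusted p = 3.08e-05). Of ZP4 they had at least 220-fold less (adjusted p = 1.07e-05), with 4 of 5 C2 arrays at that limit.

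GDF9 and BMP15 are growth factors of the TGF-beta superfamily that the oocyte secretes and that act on granulosa and cumulus cells. GDF9 lay between 1.12 and 2.11 at NC1 with a median of 1.52. On the C1 arrays it was -0.85, 1.31, -3.26, -0.93, -1.39 and -2.35, and on the C2 arrays it was -1.97, -1.73, -1.67, -1.34 and -1.95. C1 replicates 3 and 6 were thus below every C2 array, while C1 replicate 2 lay within the NC1 range. GDF9 was well above background on every array and 3.30 ± 0.52 (SE) lower at C2 than at NC1, a 9.84-fold fall (adjusted p = 6.64e-05). Against C1 the difference of C2 was -0.49 ± 0.52 (SE, adjusted p = 0.482), and it was 0.02 without C1 replicate 2.

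BMP15 lay between -2.94 and -0.88 at NC1 with a median of -2.23 and was well above background on 5 of 6 arrays. It measured -3.83, -3.05, -6.96, -3.87, -4.17 and -5.94 on the C1 arrays, 3 of them well above background, and between -5.87 and -5.32 on the C2 arrays, none of them. C2 samples had at least 2.79-fold less BMP15 signal than NC1 samples (adjusted p = 0.000115), and a limit against C1 could not be given because the C1 mean of -4.64 was below it. The NC1 mean behind the 2.79-fold limit takes NC1 replicate 3, at background, at its measured value.

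NLRP5, also called MATER, is a maternal-effect protein of the oocyte cortex that early embryos need to develop. It lay between 2.81 and 4.30 at NC1 with a median of 3.47, and measured 2.39, 2.63, 0.68, 1.58, 1.89 and -1.09 on the C1 arrays. On the C2 arrays it was 0.32, 0.93, -2.35, -1.54 and 1.49, so that replicates 3 and 4 were well below the other 3. Those 2 arrays were also the C2 arrays scanned on the second day and 1 of the close pairs. C2 samples were 3.71 ± 0.67 (SE) lower than NC1 samples, a 13.1-fold fall (adjusted p = 0.000242). Against C1 the difference was -1.58 ± 0.67 (SE, adjusted p = 0.0674), and within scan days it was -0.15 on the first and -3.58 on the second.

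MOS is the kinase that drives the MAP kinase pathway in maturing oocytes and holds the egg at metaphase II. It lay between 2.34 and 3.80 at NC1 with a median of 2.98, and measured 1.77, 2.35, -6.69, 0.24, 0.85 and -5.06 on the C1 arrays. All C2 arrays lay between -5.74 and -4.96. MOS was well above background on 4 C1 arrays and on no C2 array, with C1 replicates 3 and 6 again at the C2 level. C2 samples had at least 89.7-fold less signal than NC1 samples (adjusted p = 5.23e-05).

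CPEB1 binds the cytoplasmic polyadenylation element of stored messenger RNAs and controls their translation in oocytes. Its probe lay between 6.97 and 7.61 at NC1, with a median of 7.18, and between 6.65 and 7.68 at C1, with a median of 7.33. On the C2 arrays it measured 4.59, 3.37, 4.57, 4.41 and 4.42. The NC1 and C1 ranges overlapped, and every C2 array lay below both. CPEB1 fell 7.80-fold at C2 against C1, by 2.96 ± 0.23 (SE) on the log2 scale (adjusted p = 1.76e-08). From NC1 it fell by 2.98 ± 0.23 (SE), or 7.88-fold, with an adjusted p of 1.78e-08. Between C1 and NC1 it differed by -0.02 ± 0.22 (SE, adjusted p = 0.993). On C1 replicates 3 and 6, where ZP2 and MOS were at background, CPEB1 measured 7.08 and 7.68. The granulosa and cumulus markers FSHR, FOXL2, HSD17B1 and AMH had the same pattern. They did not pass between C1 and NC1, and their differences of C2 from C1, -3.55, -2.99, -6.46 and -2.14, passed. The markers INHA, INHBA, NR5A2 and SERPINE2 passed in neither comparison. Whether the CPEB1 signal came from oocytes or cumulus cells was not tested.

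NOBOX is a homeobox factor that switches on oocyte genes in the early follicle. Its probe was named through its gene ID, and whether it reports the NOBOX transcript was not tested. The probe lay between -2.85 and -1.97 at NC1, between -2.86 and -1.59 at C1, and between -2.49 and -1.69 at C2, and was well above background on 16 of 17 arrays. The 3 ranges overlapped. It differed by 0.12 ± 0.23 (SE) between C2 and C1, by 0.25 ± 0.23 between C2 and NC1 and by 0.13 ± 0.22 between C1 and NC1, with no adjusted p under 0.419. DAZL, an RNA-binding protein of germ cells that promotes translation, was close to background everywhere. Its probe lay between -5.77 and -3.30, was well above background on 2 C1 arrays and on no other, and differed between no pair of stages at an adjusted p under 0.426. No level of DAZL can be ranked on these arrays.

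Between C1 and NC1, a comparison of compact cumulus of adult cows with that of calves, 9 of 10 members had the lower mean at C1. Among these 9, CPEB1 differed by only -0.02 ± 0.22 (SE) and DAZL was close to background. In limma 0 members passed the threshold. Among all valid probes 0.0577% passed it, and among all probes 0.116%. At an unadjusted p under 0.05, 3 of 5 valid members and 4 of the 5 others differed, where 9.84% of valid probes and 20.3% of all probes did. Of the members above background on every array of both stages, ZP3 was nearest to the threshold (-1.91 ± 0.32, SE, adjusted p = 0.0133), then GDF9 (-2.81 ± 0.50, adjusted p = 0.0177) and NLRP5 (-2.13 ± 0.64, adjusted p = 0.186). The others had C1 arrays at background, so their differences are limits. C1 samples had at least 15.5-fold less ZP2 signal (adjusted p = 0.0442), with 4 of 6 C1 arrays measured, and at least 19.3-fold less ZP4 signal (adjusted p = 0.0442), with 5 of 6 measured. For MOS it was at least 11.1-fold less (adjusted p = 0.0465), with 4 of 6 measured, and for BMP15 at least 3.30-fold less (adjusted p = 0.0264), with 3 of 6 measured. The BMP15 limit takes NC1 replicate 3, at background, at its measured value. Without C1 replicate 2, the highest C1 array for all 7 genes of this pattern, ZP3, GDF9 and BMP15 passed the threshold, with differences of -2.11 for ZP3 and -3.32 for GDF9. No member passed it when any other single array was left out.

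For 4 of the 10 members, ZP3, ZP4, BMP15 and NLRP5, every C1 array lay below every NC1 array, as for 1.32% of all probes. An exact permutation test of the means, 2-sided, gave p = 0.00216 for each, the smallest that 6 arrays against 6 allow. For BMP15 this order is unsettled, since NC1 replicate 3 (-2.94) was not well above background and C1 replicate 2 measured -3.05. For ZP2, GDF9 and MOS, where C1 replicate 2 reached into the NC1 range, the exact permutation p was 0.00433. Within the first scan day the 7 genes differed by -4.95 to -2.18 and within the second by -4.49 to -1.49. All 7 were lower on both days, with 3 arrays of each stage and signals at background at their measured values. The 7 genes were grouped by their highest mean at NC1, so their shared direction is a description.

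Between C2 and C1, expanded against compact cumulus of adult cows, CPEB1 was the 1 of 5 valid members that passed the threshold, where 28.1% of valid probes did and 12.8% did in the lower direction. Of the members outside the valid probes ZP4 passed it (adjusted p = 0.00462), where 9.97% of all probes did in that direction. Its C2 signal was at least 11-fold lower. The call was lost under 10 other settings, among them array weights, a slide block and the C1 arrays 1, 2, 4 or 5 left out one at a time. ZP3 (-1.04 ± 0.33, SE, adjusted p = 0.0178), ZP2 (adjusted p = 0.0141) and MOS (adjusted p = 0.0142) did not pass. With all 5 C2 arrays at background, the limits were at least 4.46-fold for ZP2 and at least 5.39-fold for MOS, against C1 means in which 2 of 6 arrays were themselves at background. Without C1 replicate 3, and likewise without C1 replicate 6, all 3 did. Apart from CPEB1, the C2 arrays overlapped with the C1 arrays for every member, while they did not overlap and were lower for 9.11% of all probes.

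Between C2 and NC1, 4 of 5 valid members (ZP3, GDF9, NLRP5 and CPEB1) and 4 of the 5 others (ZP2, ZP4, BMP15 and MOS) fell, where 12.6% of valid and 9.79% of all probes did. For these 8 genes every C2 array lay below every NC1 array, as for 8.64% of all probes, and the exact permutation test gave p = 0.00433, the smallest for 5 arrays against 6. BMP15 is counted with NC1 replicate 3 and the C2 arrays, all at background, at their measured values. The median difference of the 10 members was -3.37, beside -0.01 over all probes, with signals at background taken at their measured values. All 8 calls held in every alternative that gave them a value, but their sizes did not. With normexp background correction, which adds an offset of 50 intensity units to every signal, the difference was -2.0 for GDF9, -4.31 for ZP2, -5.13 for ZP4, -3.90 for MOS and -0.80 for BMP15. Those of ZP2, ZP4, MOS and BMP15 are smaller than the limits given above, which hold only on the scale without that offset. This comparison and that of C2 with C1 share the C2 samples.

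**Figure D2:**
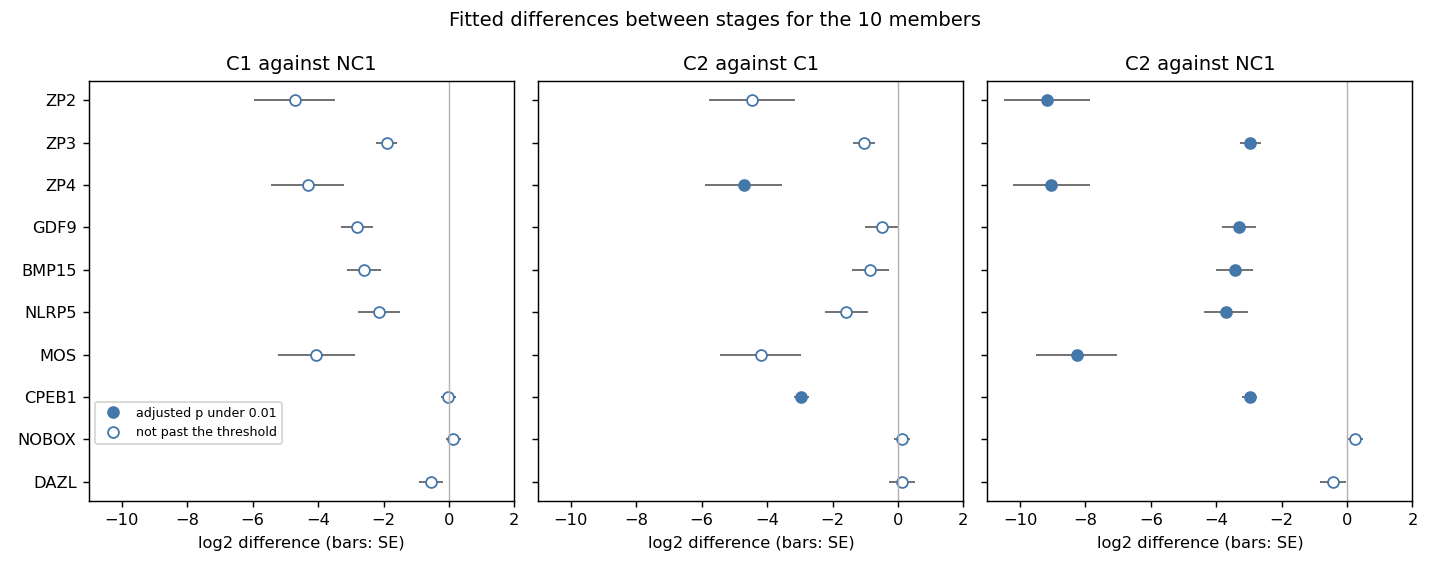
Fitted log2 difference (horizontal axis) with its SE for the 10 members in the 3 comparisons, filled where the adjusted p was under 0.01. In C1 against NC1 no point is filled, in C2 against C1 ZP4 and CPEB1 are, and in C2 against NC1 8 of 10 are. The plotted differences of ZP2, ZP4, BMP15, MOS and DAZL use signals at background at their measured values, so their sizes are not measured; the text gives limits for the first 4.

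The 7 genes of the first pattern shared their highest array at NC1 and at C1, and did not at C2. Among the 6 NC1 arrays, replicate 2 was the highest for all 7 genes of the first pattern and replicate 3 the lowest for 6 of 7, MOS being lowest on replicate 1. Among the C1 arrays, replicate 2 was the highest for all 7, replicate 3 the lowest for ZP2, ZP4, GDF9, BMP15 and MOS, and replicate 6 the lowest for ZP3 and NLRP5. Against the NC1 mean of each gene, the median of the 7 genes was 0.68 on NC1 replicate 2 and -0.59 on NC1 replicate 3. On the C1 arrays 1 to 6 it was -1.79, -0.67, -4.92, -2.50, -2.13 and -4.57. On C1 replicates 3 and 5 the median was the value of BMP15, which was at background there. On the C2 arrays the median of the 7 genes was -3.83, -3.30, -5.83, -5.01 and -3.51, where arrays at background set a lower end to it. These medians therefore do not rank the C1 arrays against the C2 arrays. ZP3, above background throughout, was at -2.78 and -2.93 on C1 replicates 3 and 6 and between -3.59 and -2.49 at C2. No array was highest for more than 2 of the 7 genes at C2.

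**Figure D3:**
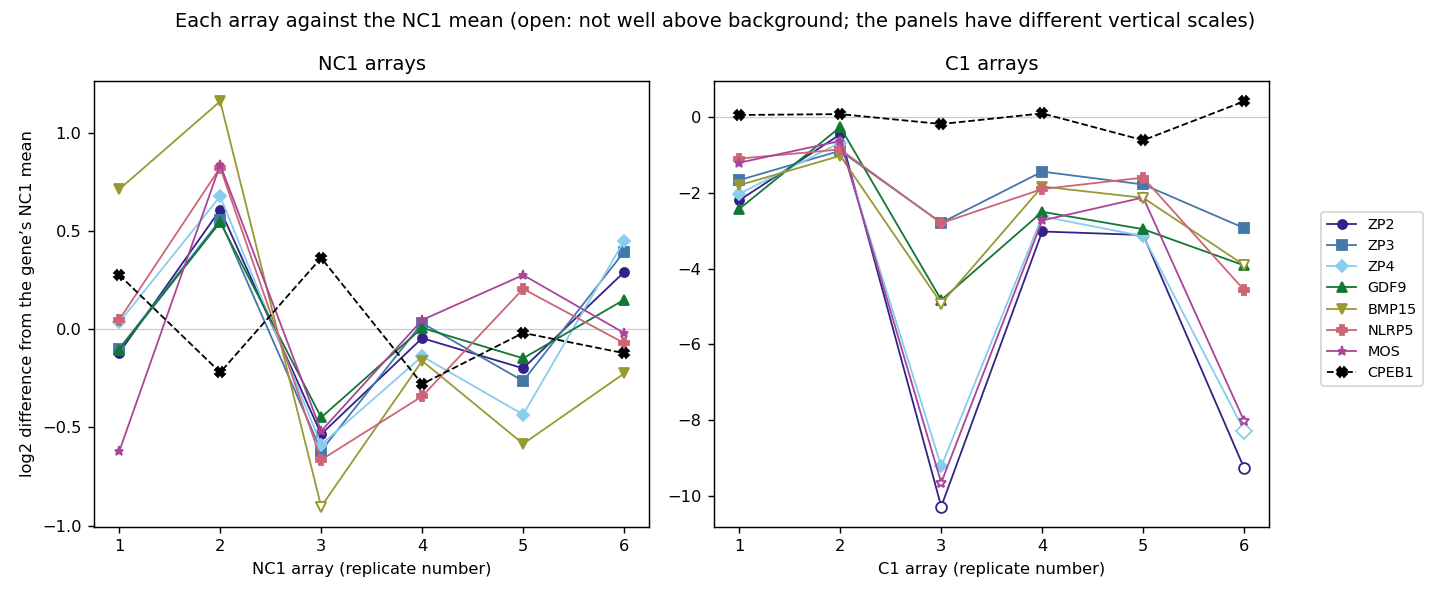
Log2 difference of each array from the NC1 mean of the same gene (vertical axis) for 8 members on the 6 NC1 arrays (left) and the 6 C1 arrays (right), with different vertical scales; lines join the points of a gene and replicates have no order. Open points were not well above background. The 7 genes of the first pattern are highest on replicate 2 of each stage, and CPEB1, the broken line, stays between -0.60 and 0.43 of its NC1 mean.

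Within NC1, where 7 members were above background on every array, the tightest group was ZP2, ZP3, ZP4 and GDF9. ZP2 and GDF9 ordered the 6 arrays alike (Pearson r = 0.99, exact permutation p = 0.00139; Spearman rho = 1, exact p = 0.00278), as did ZP2 and ZP3 (r = 0.98, exact p = 0.00139). The SD of the difference between ZP2 and ZP3 over these arrays was 0.08, while each gene alone had an SD of 0.40 to 0.43. With the 2 farthest arrays left out, r was 0.97 for ZP2 and GDF9 and 0.99 for ZP2 and ZP3. Of 21 pairs compared, 6 passed an adjusted p of 0.05, all of them among these 4 genes, and 3 did by rank. NLRP5 and MOS had r between 0.54 and 0.83 with the others, and these values rest on the outer arrays, since with 2 arrays left out r ran from -0.57 to 0.09. CPEB1 had a negative r with all 6 others, between -0.79 and -0.46, and no pair with it passed.

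Over all 17 arrays with the stage means removed and the arrays permuted within stages, the members above background on every array gave 6 pairs of 45 compared. ZP3 and NLRP5 had r = 0.78 (permutation p = 0.00016, adjusted p = 0.00162; rho = 0.77, adjusted p = 0.0142). ZP3 and GDF9 had r = 0.78 (permutation p = 0.0029, adjusted p = 0.01; rho = 0.65, adjusted p = 0.0532). Without C1 replicates 3 and 6, the arrays farthest from the median of ZP3, r was 0.71 and 0.65. GDF9 and NLRP5 had r = 0.44 (permutation adjusted p = 0.322; rho = 0.33) and did not pass. CPEB1 had r of -0.29, -0.02 and -0.43 with ZP3, GDF9 and NLRP5, each with an adjusted p above 0.32. For the pairs with ZP2, ZP4, MOS or BMP15 no pooled value is given, because signals at background have no order.

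On C1 replicates 3 and 6, the shares of probes well above background were 82.8% and 73.6%, the highest and the lowest of C1, and the median signals were 178 and 121 intensity units. FSHR, the receptor for follicle-stimulating hormone on granulosa cells, measured 5.42 and 5.79 on them and between 5.40 and 5.91 over the C1 arrays. The summed signal of the 12 granulosa and cumulus markers was 12.43 and 13.04, again the lowest and the highest of C1. The part of these measures in the values of the oocyte transcripts was not tested.

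Outside the members, the 5 named genes among the valid probes whose deviations from the stage means were most like the mean of the 5 valid members over the 17 arrays were RASGRP2 (r = 0.84), GDF3 (r = 0.81), C15H11orf16 (r = 0.78), SUSD3 (r = 0.76) and PRLH (r = 0.76). These values are a description, over arrays that share slides and scaling. RASGRP2 had means of 0.93, -1.50 and -1.81 at NC1, C1 and C2, and GDF3, a growth factor of the same family as GDF9, of 1.14, -1.28 and -2.56. Those of C15H11orf16 were -0.05, -1.72 and -2.85 and those of PRLH 0.67, 0.25 and -0.47. SUSD3, with 0.24, -2.03 and -0.65, was lowest at C1.

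A wider list of 81 oocyte and germ cell genes, in 7 groups by role, had probes matched by name for 56. Probes described as similar to NLRP7 and NLRP14, genes of the list, were not matched by name and are outside these counts. In the fit of all probes, 22 of the 56 fell at C2 against NC1 and 2 rose, where 9.79% of all probes fell and 10.7% rose. The 22 include TBPL2, which was well above background on no NC1 or C2 array. They also include DDX4 and SOHLH2, well above background on 2 of 6 NC1 arrays and on no C2 array. Between C2 and C1, 9 fell and 1 rose, where 9.97% fell and 11.2% rose, and 2 fell at C1 against NC1, where 0.0931% of all probes did. Every C1 array lay below every NC1 array for 12 of 56, as for 1.32% of all probes. The 12 include SMC1B, which was well above background on no array of any stage. The median differences over the 56 genes were -0.81 for C2 against NC1, 0.02 for C2 against C1 and -1.08 for C1 against NC1, beside -0.01, 0.13 and -0.01 over all probes. These medians take signals at background at their measured values, and the background limit differed between stages. The lowest signal well above background had a median of -2.95 over the NC1 arrays, -4.00 over C1 and -3.49 over C2. PIWIL3, well above background on no array, differed by -1.09 between C1 and NC1. The part of this limit in the medians was not tested. Of the 56 genes, 16 were well above background on no NC1 array.

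**Figure D4:**
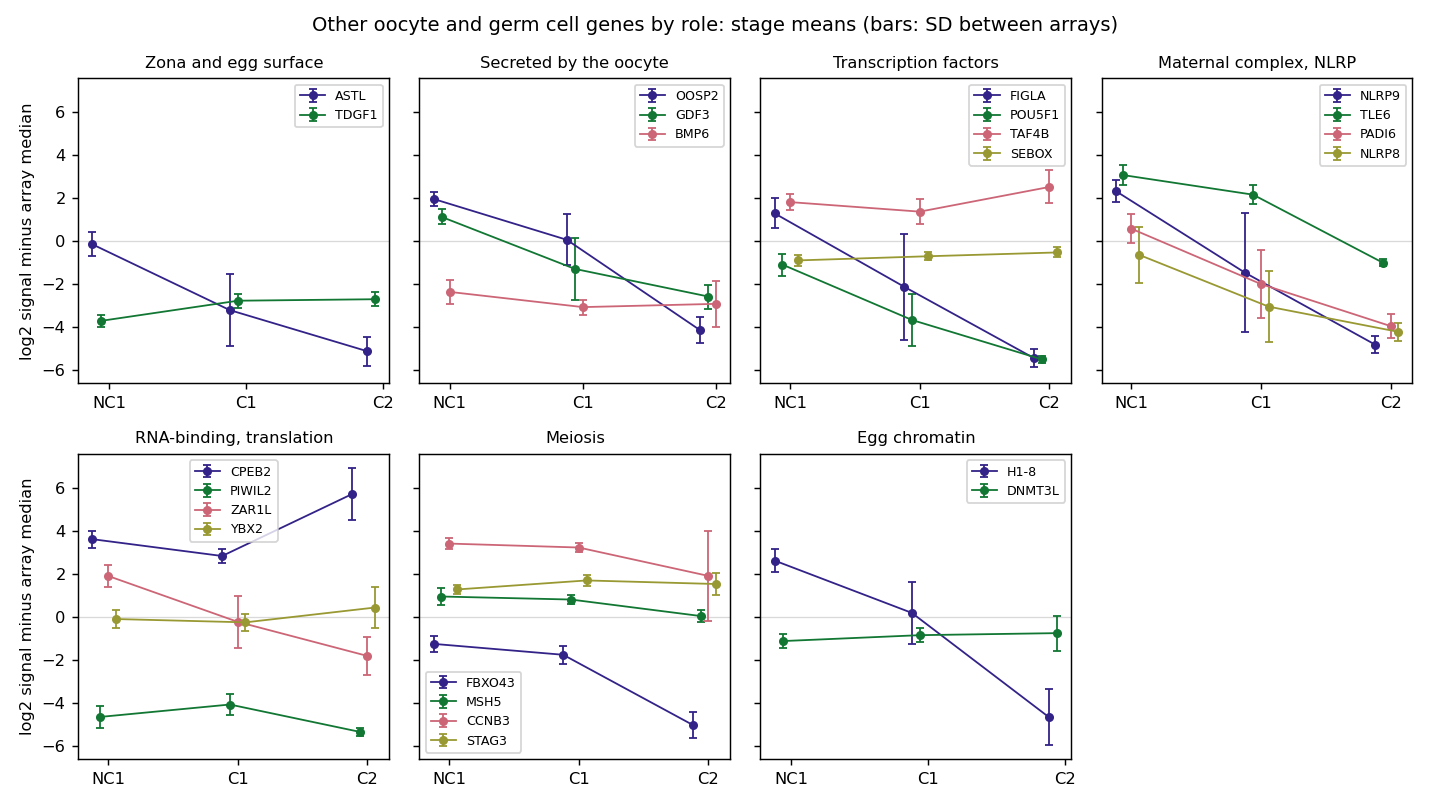
Stage means of the log2 signal minus the array median (vertical axis) for genes of the wider list in 7 groups by role, with the SD between arrays as bars (n = 6 at NC1 and C1, 5 at C2). FIGLA, NLRP9, H1-8, ASTL and OOSP2 descend from NC1 to C2 with wide bars at C1, while SEBOX, STAG3, YBX2 and DNMT3L stay nearly level.

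Of the list's genes, 29 were well above background on every NC1 array. They were chosen by the stage where they are high, so their losses elsewhere are a description, set beside all probes chosen the same way. All 29 were detected on C1 replicates 1, 2, 4 and 5, while 6 were lost on C1 replicate 3 and 10 on C1 replicate 6. Of all 13638 probes above background on every NC1 array, 0.249% and 0.557% were lost on those 2 arrays. On the C2 arrays 10, 14, 12, 13 and 11 of the 29 were lost, where 0.99% to 1.88% of all such probes were.

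Among egg surface genes, ASTL, which encodes the protease ovastacin of the cortical granules, had means of -0.14 ± 0.55 (SD, n = 6), -3.19 ± 1.67 (n = 6) and -5.10 ± 0.67 (n = 5) at NC1, C1 and C2. It did not pass against C1 (adjusted p = 0.0218) and had at least 10.4-fold less signal at C2 than at NC1 (adjusted p = 5.76e-06). TDGF1, a cofactor of NODAL signalling, ran the other way, with -3.70 ± 0.29, -2.76 ± 0.33 and -2.69 ± 0.32, and rose at C2 against NC1 (adjusted p = 0.00121), with only 2 of 6 NC1 arrays well above background. Among secreted factors, the oocyte-secreted protein OOSP2 had means of 1.97 ± 0.33, 0.07 ± 1.19 and -4.13 ± 0.61. It stayed above background on all 6 C1 arrays and on 1 C2 array, and its signal at C2 was at least 11.8-fold lower than at C1 (adjusted p = 1.14e-06). GDF3 (adjusted p = 0.0665) and BMP6 (adjusted p = 0.785) did not pass between C2 and C1.

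Of the transcription factors, FIGLA, which drives the zona genes, had means of 1.30 ± 0.70, -2.11 ± 2.47 and -5.43 ± 0.41 and at least 2.65-fold less signal at C2 than at C1 (adjusted p = 0.00526). POU5F1, a pluripotency factor kept in the germ line, had means of -1.08 ± 0.52, -3.66 ± 1.23 and -5.49 ± 0.17, passed against C1 (adjusted p = 0.0041) with both means below the limit set for the C2 arrays, and fell at least 5.43-fold against NC1. TAF4B, a subunit of the general factor TFIID in germ cells, and SEBOX, a homeobox gene, were not lower at C2, with means there of 2.53 ± 0.77 and -0.51 ± 0.23 and of 1.38 ± 0.59 and -0.69 ± 0.20 at C1. TAF4B had an adjusted p of 0.0138 over all probes and of 0.00951 over the valid probes, which puts it on either side of the threshold.

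Of the subcortical maternal complex and the NLRP family, to which NLRP5 belongs, 4 of 5 genes with a probe matched by name fell at C2 against NC1 and 2 against C1, where 9.79% and 9.97% of all probes did. NLRP9 had means of 2.34 ± 0.53, -1.47 ± 2.77 and -4.80 ± 0.40 and at least 4.70-fold less signal at C2 than at C1 (adjusted p = 0.00922). TLE6, a partner of NLRP5 in that complex, had means of 3.08 ± 0.47, 2.17 ± 0.43 and -0.99 ± 0.18. TLE6 fell by 3.16 ± 0.25 (SE) against C1 (adjusted p = 2.69e-08), and its C1 replicates 3 and 6 measured 1.51 and 2.48, above background. PADI6 (adjusted p = 0.0161) and NLRP8 (adjusted p = 0.202) did not pass between C2 and C1.

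Of the RNA-binding and translation proteins, 8 of 19 fell at C2 against NC1 and 1 against C1, where 9.79% and 9.97% of all probes did. The 8 include DDX4, well above background on 2 of 6 NC1 arrays and on no C2 array. CPEB2, a relative of CPEB1, rose at C2 by 2.87 ± 0.41 (SE) against C1 (adjusted p = 2.76e-05), with means of 3.62 ± 0.39, 2.84 ± 0.35 and 5.71 ± 1.22 (SD). PIWIL2 passed against C1 (adjusted p = 0.00136) but was well above background on 5 C1 arrays and on no other. ZAR1L, a zygote arrest protein, had means of 1.91 ± 0.53, -0.22 ± 1.22 and -1.81 ± 0.89 (adjusted p = 0.0236 against C1), and YBX2 of -0.09 ± 0.43, -0.25 ± 0.39 and 0.44 ± 0.93.

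Of 13 meiosis genes, 2 fell against C1, where 9.97% of all probes did. FBXO43, an inhibitor of the anaphase-promoting complex that holds oocytes in meiotic arrest, had means of -1.25 ± 0.38, -1.75 ± 0.42 and -5.02 ± 0.61, and at least 3.40-fold less signal at C2 than at C1 (adjusted p = 9.5e-08). Like CPEB1 and the granulosa marker FSHR, FBXO43 did not pass between the compact stages (difference of -0.51 ± 0.27, SE, adjusted p = 0.32) and was lower at C2. Unlike CPEB1, it was well above background on no C2 array. MSH5 fell by 0.77 ± 0.20 (SE) against C1 (adjusted p = 0.00752), and its other probe, well above background on 1 of 5 C2 arrays, passed in the same direction. STAG3, a meiotic cohesin subunit, differed in size between its 2 probes, with -0.17 for 1 of them (adjusted p = 0.582) and -3.58 for the other (adjusted p = 1.52e-08). CCNB3 did not pass (adjusted p = 0.113). Of the egg chromatin genes, the oocyte linker histone H1-8 had means of 2.63 ± 0.53, 0.20 ± 1.43 and -4.66 ± 1.29, and its C2 signal, above background on 2 of 5 arrays, was at least 11.1-fold lower than at C1 (adjusted p = 9.46e-06). DNMT3L, a cofactor of DNA methylation, had means between -1.12 and -0.75.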

How the data were processed

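Cumulus samples of 6 NC1, 6 C1 and 5 C2 animals were measured on 17 one-colour Agilent arrays and grouped by the stage in their labels. The authors deposited intensity values per spot from Feature Extraction 10.5.1.1, background-corrected and not scaled between arrays, and a table of log2 values scaled by array medians in GeneSpring. On the files, that table held the 15256 probes present on at least 80% of arrays in any 2 stages. Flags for signals well above background and for outlying spots, as deposited, were used too. No spot was saturated.

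Here, log2 signals were averaged over the spots of a probe, without those marked non-uniform or outlying, and each array's median over non-control probes was subtracted. A probe counted as well above background where 50% or more of its spots did. Positions are left out, since no genome build is named in the files. Stages were compared in 1 fit with limma 3.58.1 (statmod 1.5.0, R 4.3.3), by contrast, with Benjamini-Hochberg adjustment at 0.01. The fit was tested on simulated data. For probes at background in the lower stage, a limit of the fold was computed: each such array was set at its lowest signal from any probe whose spots were all well above background, unless the probe's own value was higher. No test was made of these limits, and the adjusted p beside them is that of the fit to the measured signals. Single members were also compared by a 2-sided exact permutation test of means, and pairs of members by correlation with 100000 permutations within stages. The pairs within NC1 were added after the data were seen. Same-numbered samples of different stages had correlations of -0.32 to 0.25 in 16 pairs, 4 of them over 0.1, so the numbers do not pair the samples. Other steps used Python 3.11.15, numpy 2.4.6, pandas 2.3.3 and scipy 1.17.1.

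Symbols came from the files and, by accession or gene ID, from a RefSeq table of assembly ARS-UCD2.0. Probes whose description names another current gene were left out. Every member is named, and of each group of the wider list up to 3 genes past the threshold with the largest change between C2 and C1 and the 2 brightest others, with the brightest probe of a gene, as well as the 5 genes most like the valid members. A second probe is named where it differs. The members and lists were chosen with earlier results of these data known. Alternatives were other scalings, background corrections, filters, block terms, array weights, the deposited log2 table and each array left out.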

Additional observations from a re-analysis of the deposited data

Results flagged for a closer look

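Of 30 combinations of a member and a stage, 2 had an array whose gap to its nearest neighbour was large for its stage by Dixon's criterion, which flags about 1 in 20 by chance. CPEB1 measured 3.37 on C2 replicate 2, while the other 4 C2 arrays lay between 4.41 and 4.59. BMP15 measured -5.87 on C2 replicate 1, while the others lay between -5.46 and -5.32, all at background. The C1 replicates 3 and 6, low for ZP2, ZP4 and MOS, met no such criterion because they are 2 arrays.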

How the results depend on the processing

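Of 816 member differences recomputed under other settings, 771 kept their direction and side of the threshold, 18 gained a call, 10 lost one (all of them ZP4 in C2 against C1) and 17 changed sign, none of them called. The 8 probes called in C1 against NC1 became 2 with slide as a block, 0 with the replicate block, 239 with array weights and 25 over all probes. The numbers do not pair the samples. Of the 5 valid members, the 1 called in C2 against C1 became 3 with the replicate block, which added ZP3 and NLRP5. Of the 5 others, the 1 called there became 3 with quantile normalization and with the replicate block, and 0 with normexp, slide as a block, array weights or the close C2 arrays averaged, the last chosen after seeing the data. In C1 against NC1, array weights gave 2 valid members (ZP3 and GDF9) and 1 other (BMP15). Leaving out 1 array at a time gave 1 to 19 probes in C1 against NC1, with 0 to 2 valid members and 0 to 1 others. In C2 against C1 it gave 3358 to 4266 probes, with 1 to 2 valid members and 0 to 3 others, and in C2 against NC1 3363 to 4153, with 4 and 4. Without C1 replicate 3 or replicate 6, ZP2, ZP3 and MOS were added in C2 against C1, and without C1 replicate 2, ZP3, GDF9 and BMP15 in C1 against NC1. Signs changed in C2 against C1 for NOBOX (-0.00625 with 75th percentile scaling, -0.0566 with array weights), DAZL (-0.00398 and -0.0840), and BMP15 (0.0169 with normexp). In C2 against C1, leaving out 1 array gave GDF9 -0.89 to 0.0232 and DAZL -0.13 to 0.43. With normexp NOBOX became -0.0415 in C2 against NC1 and -0.20 in C1 against NC1, and CPEB1 0.31 in the latter, where array weights gave 0.0238. There, leaving out 1 array gave NOBOX -0.00450 to 0.25 and CPEB1 -0.10 to 0.10. The cause was not tested. Normexp also gave smaller differences in C1 against NC1 for ZP2 (-2.64), MOS (-2.20), GDF9 (-1.71) and BMP15 (-0.82), its offset being added to every signal. Each member has 1 probe, so the choice of another probe gave no value, and of the members outside the valid probes the deposited table holds ZP4 alone. Signals near background limit ZP2, ZP4, BMP15, MOS and DAZL.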

Other observations

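Of all 21475 probes, 14 (0.0652%) were well above background on the same arrays as ZP2, that is on all 6 NC1 arrays, on C1 replicates 1, 2, 4 and 5 and on no C2 array. ZP2 and MOS are 2 of them. Among the others are BTG4, a protein that directs the removal of maternal messenger RNA, ZAR1, a zygote arrest protein, and GTSF1 and a TDRD9 probe, both of the piRNA pathway. Probes described as similar to NLRP14 and NLRP7, and those of SPATA22, a meiotic recombination protein, IGF2BP3, an RNA-binding protein, ALX1 and SEZ6 share the pattern, as do entries described as similar to Cullin-1 and usherin. This set was chosen by its pattern of detection, after the values were seen, and no test was made of it. The number of probes above background on every NC1 array and on no C2 array, whatever the C1 arrays showed, was 50 (0.233%).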
